A study of Mus musculus with 21 samples.

Results

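The mRNAs described here encode 10 proteins of the lumen and membrane of the endoplasmic reticulum (ER): the Hsp70-type chaperone Hspa5 (BiP) with its partners Dnajb11 and Hyou1, the Hsp90-type chaperone Hsp90b1 (Grp94), the lectin chaperones Calr and Canx, the disulfide isomerases Pdia3, Pdia4 and Pdia6, and the secreted ER stress-inducible factor Manf. They were taken by name from 55487 genes of the count table, and all 10 were among the 18146 genes that passed the filter on low counts. The 10 genes were chosen with the difference between the rearing conditions already known, so that difference is given for them as a description and supports nothing, whereas the variation among mice of 1 condition did not use that contrast. The questions were how these mRNAs varied together from mouse to mouse and how their levels in maternally separated mice compared with those in controls.

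The study asked which transcripts of the adult hippocampus differ after early life stress. Poly-A RNA was sequenced from the hippocampi of 21 male wild type C57BL/6 mice, with 1 library per mouse, at an age of 10 weeks. In the maternal separation (MS) group, 9 mice came from litters that had been kept away from the dam, as whole nests, for 4 hr per day from postnatal day 10 to day 17, in alternation between the light and the dark phase, with nesting material reduced in the home cage. In the standard rearing (SR) group, 12 mice had no such treatment. Food and water were free in all cages, and no drug, transgene or deletion was used.

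The ER folds secreted and membrane proteins with the help of these chaperones, and Calr and Canx hold proteins that carry sugar chains while Pdia3 forms their disulfide bonds. When unfolded proteins accumulate, the sensors Ern1 (IRE1), Atf6 and Eif2ak3 (PERK) start the unfolded protein response, in which the transcription factors Xbp1 and cleaved Atf6 activate chaperone genes through the ER stress response element (ERSE) of their promoters. Neurons make many membrane and secreted proteins, such as receptors, channels and peptide precursors, which pass through this machinery.

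Animal numbers in the labels fell into 7 sets of 3 consecutive numbers, each of 1 condition, named A to C in MS and D to G in SR, and a mouse is named by its set and its place in it. The sets lay in 2 ranges of numbers, with A, B, D, E and F in the first range and C and G in the second. The labels name no litter. The paper describes litters balanced to 3 males and 3 females, with a condition given to the nest as a whole, so mice of a set may share a litter. P-values over mice then treat as separate what may be related. Libraries held from 17276810 to 30449055 counts in MS and from 18368519 to 26450808 counts in SR. The MS library A2 lay apart on the first principal component of all libraries, at 27.1 where the other 20 lay between -12.2 and 11.9, and it was left out of all values below unless it is named, which left 8 MS mice. Its 6 markers of striatal neurons summed to 1298 CPM (a count scaled to the normalised size of its library), where the other MS libraries had at most 431 and SR libraries at most 269.7, and its 5 dentate granule cell markers summed to 116 CPM, where the others had at least 239.5. In the other 20 libraries markers of dentate granule cells and of CA pyramidal neurons were present, with sums of at least 239.5 and 337 CPM.

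Promoters are shown for the members that hold the ERSE, since the element is the sequence through which the unfolded protein response is known to drive chaperone genes and the members varied together. Windows from RefSeq (GRCm38.p6), from 250 bases before to 50 bases after the transcript start, were matched for 8 of the 10 members, Manf and Hyou1 having no entry in the table. The motif was written as CCAAT and CCACG with 9 bases of any kind between them and searched on both strands. It was held by 39 of 32851 windows (0.119%) and by 5 of the 8 members' windows, those of Hspa5, Hsp90b1, Calr, Canx and Pdia6. Since the element was already known from chaperone genes, its count in the members is a description and supports nothing. The sequences are written 5′ to 3′ on the strand of the gene, with the outer words of each match in capitals (a match on the opposite strand reads as CGTGG and ATTGG). For Hspa5 only the match and its flanks are shown, since it lies within the gene as GENCODE draws it, 65 to 47 bases before the RefSeq start. The other runs end before the start of the gene in both annotations.

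Hspa5, chr2:34772020-34772049, + strand: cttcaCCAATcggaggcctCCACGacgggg

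Hsp90b1, chr10:86705510-86705694, - strand: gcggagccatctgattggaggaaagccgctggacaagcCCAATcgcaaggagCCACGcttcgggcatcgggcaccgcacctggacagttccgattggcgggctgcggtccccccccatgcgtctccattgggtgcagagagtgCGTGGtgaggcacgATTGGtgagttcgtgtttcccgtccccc

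Calr, chr8:84846935-84847181, - strand: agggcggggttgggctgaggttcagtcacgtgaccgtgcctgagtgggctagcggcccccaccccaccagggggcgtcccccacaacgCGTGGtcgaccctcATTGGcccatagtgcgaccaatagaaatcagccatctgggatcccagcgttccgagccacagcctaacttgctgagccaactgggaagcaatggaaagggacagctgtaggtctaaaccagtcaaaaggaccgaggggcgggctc

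Canx, chr11:50325674-50325923, - strand: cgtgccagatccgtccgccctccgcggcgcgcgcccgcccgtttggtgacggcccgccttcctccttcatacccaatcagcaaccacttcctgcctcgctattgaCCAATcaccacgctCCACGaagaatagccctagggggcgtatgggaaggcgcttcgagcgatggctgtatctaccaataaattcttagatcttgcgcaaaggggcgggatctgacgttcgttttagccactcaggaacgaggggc

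Pdia6, chr12:17266339-17266544, + strand: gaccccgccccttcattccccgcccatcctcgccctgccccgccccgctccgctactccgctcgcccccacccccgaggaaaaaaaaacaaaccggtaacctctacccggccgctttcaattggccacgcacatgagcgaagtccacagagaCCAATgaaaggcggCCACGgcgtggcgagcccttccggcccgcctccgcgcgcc

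Hsp90b1 held 2 matches, one on each strand, and the other 4 members held 1 each. A shorter relative of the element, ATTGG and CCACG with 1 base between them (ERSE-II), was in 12 of the 32851 windows (0.0365%), among them that of Dnajb11, where it lay past the transcript start. The UPRE motif, TGACGTGG, was in 222 windows (0.676%) and in 0 of the 8 members' windows. All 3 motifs contain CCACG on 1 of the strands, so matches of different motifs can overlap. A match is a description and not a site or a cause, and the windows of Pdia3 and Pdia4, which held none of the 3 motifs, belonged to members that varied with the rest.

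Levels were compared between genes as CPM per kilobase of exon in the 12 SR mice. Calr, a calcium-binding lectin chaperone of the lumen, stood highest at 118 ± 11.7 CPM per kilobase (SD, n = 12), and its lowest mouse, at 106 CPM per kilobase, lay above the highest mouse of the next gene. Canx, its membrane-bound relative, followed at 64.7 ± 3.20, Hspa5 at 62.0 ± 11.5 and Hsp90b1 at 61.5 ± 5.39 CPM per kilobase. These 3 did not differ beyond their spread, Canx being above Hspa5 in 8 of 12 mice and Hspa5 above Hsp90b1 in 5 of 12. Pdia3 followed at 49.4 ± 4.59, Pdia6 at 26.2 ± 3.25 and Pdia4 at 21.6 ± 3.72 CPM per kilobase. Pdia3 was above Pdia6 in all 12 SR mice with no overlap of their ranges, and Pdia6 was above Pdia4 in all 12 although their ranges overlapped. Hyou1 at 19.0 ± 1.52, Dnajb11 at 15.2 ± 1.29 and Manf at 9.62 ± 1.28 CPM per kilobase closed the order, and Dnajb11 did not overlap with Manf. The length took in every exon of a gene model, 3524 bases for Manf, whose model also overlaps Dcaf1 and Rbm15b. Transcripts in use can be shorter, so places in this order, that of Manf included, depend on the annotation.

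The depth left little counting error in these values. The lowest count of a member in a mouse was 678, for Manf in E3, which carries a counting error of 3.84%, and the highest was 10866, for Calr in G2. The variation among SR mice was larger than that for each member, with a coefficient of variation between 4.95% for Canx and 18.6% for Hspa5. In tissue of mixed cells, more RNA per cell and more cells of a type that makes it cannot be told apart.

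Among members of the Hsp70 system, Hspa5 (chr2:34771970-34777547) is the luminal Hsp70 that binds unfolded chains and holds the stress sensors inactive. Its level lay between 210.5 and 358 CPM in SR, with a median of 253, and between 282 and 483 CPM in MS, with a median of 332. All 8 MS mice were above the SR median, and 2 of 8 were above the highest SR mouse, while 2 SR mice, G2 at 350.1 and G3 at 358 CPM, were above the MS median. The mean was 345 ± 69.0 CPM in MS (SD, n = 8) and 262 ± 48.8 in SR (SD, n = 12), a log2 fold change of 0.40 ± 0.11 (SE).

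Dnajb11 (chr16:22857845-22879634), the Hsp40 that hands clients to Hspa5, lay between 44.8 and 57.2 CPM in SR, with a median of 47.9, and between 48.0 and 61.8 CPM in MS, with a median of 53.5. The groups overlapped over most of their ranges, with 2 MS mice above all SR mice, and the log2 fold change was 0.14 ± 0.056. An antisense gene on the opposite strand, Gm30505, shares 4652 bases of the span of Dnajb11. Hyou1 (chr9:44379490-44392369), the large Hsp70 relative that exchanges the nucleotide of Hspa5, lay between 125 and 160.4 CPM in SR and between 135 and 190.0 in MS, with medians of 136 and 145 CPM. It was the only member for which an MS mouse, B3 at 135 CPM, stood below the SR median, and its log2 fold change was 0.13 ± 0.056.

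Hsp90b1 (chr10:86690209-86705509), the luminal Hsp90 that folds receptors and integrins, lay between 227 and 288 CPM in SR, with a median of 239.6, and between 249 and 326 in MS, with a median of 279.7. In MS 3 mice were above all SR mice, and the log2 fold change was 0.20 ± 0.054. Reads of Hsp90b1 may include those of 1810014B01Rik, a pseudogene on the opposite strand that shares 4598 bases of its span, since the strand setting of the counting is not given in the sources used here.

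Of the lectin chaperones, Calr (chr8:84841850-84846934) lay between 305 and 413 CPM in SR, with a median of 332, and between 351 and 485 CPM in MS, with a median of 373. Its log2 fold change was 0.21 ± 0.064, with 2 MS mice above all SR mice and 2 SR mice, G2 and G3, above the MS median. Canx (chr11:50293961-50325673) varied least of all members, between 286 and 338 CPM in SR and between 305 and 348 in MS. All 8 MS mice were above the SR median of 302 CPM and 1 was above all SR mice, while 3 SR mice were above the MS median of 315 CPM. Its log2 fold change was 0.07 ± 0.034, the smallest of the members.

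Among the disulfide isomerases, Pdia3 (chr2:121413775-121438687), the partner of the lectin chaperones, lay between 134 and 183 CPM in SR, with a median of 152, and between 163 and 203 in MS, with a median of 178. Its log2 fold change was 0.22 ± 0.054, and 3 MS mice were above all SR mice. Pdia4 (chr6:47796141-47813430) lay between 40.1 and 68.2 CPM in SR and between 53.6 and 83.2 in MS, with medians of 49.4 and 65.7 and a log2 fold change of 0.35 ± 0.097. Pdia6 (chr12:17266545-17284770), which reduces disulfide bonds and binds the sensor Ern1, lay between 84.2 and 123 CPM in SR and between 104 and 145 in MS, with medians of 94.8 and 116 and a log2 fold change of 0.29 ± 0.075. In all 3 isomerases the SR mice above the MS median were G2 and G3.

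Manf (chr9:106838312-106891979), a small luminal protein that binds Hspa5 and is secreted under stress, lay between 28.8 and 44.5 CPM in SR, with a median of 32.2, and between 37.3 and 53.7 CPM in MS, with a median of 44.6. The MS values were the most apart from SR among the 10, since 4 of 8 MS mice lay above all SR mice and 0 of 12 SR mice lay above the MS median, G2 at 44.5 CPM coming closest. The mean was 44.3 ± 6.19 CPM in MS (SD, n = 8) and 33.9 ± 4.51 in SR (SD, n = 12), a log2 fold change of 0.38 ± 0.081. The gene model of Manf overlaps Dcaf1 on the opposite strand over 42681 bases and Rbm15b on its own strand over 6511 bases, and these had log2 fold changes of -0.02 ± 0.056 and 0.07 ± 0.031. No transcript of another gene with a count shared at least 100 bases at 95% identity with a member.

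**Figure D1:**
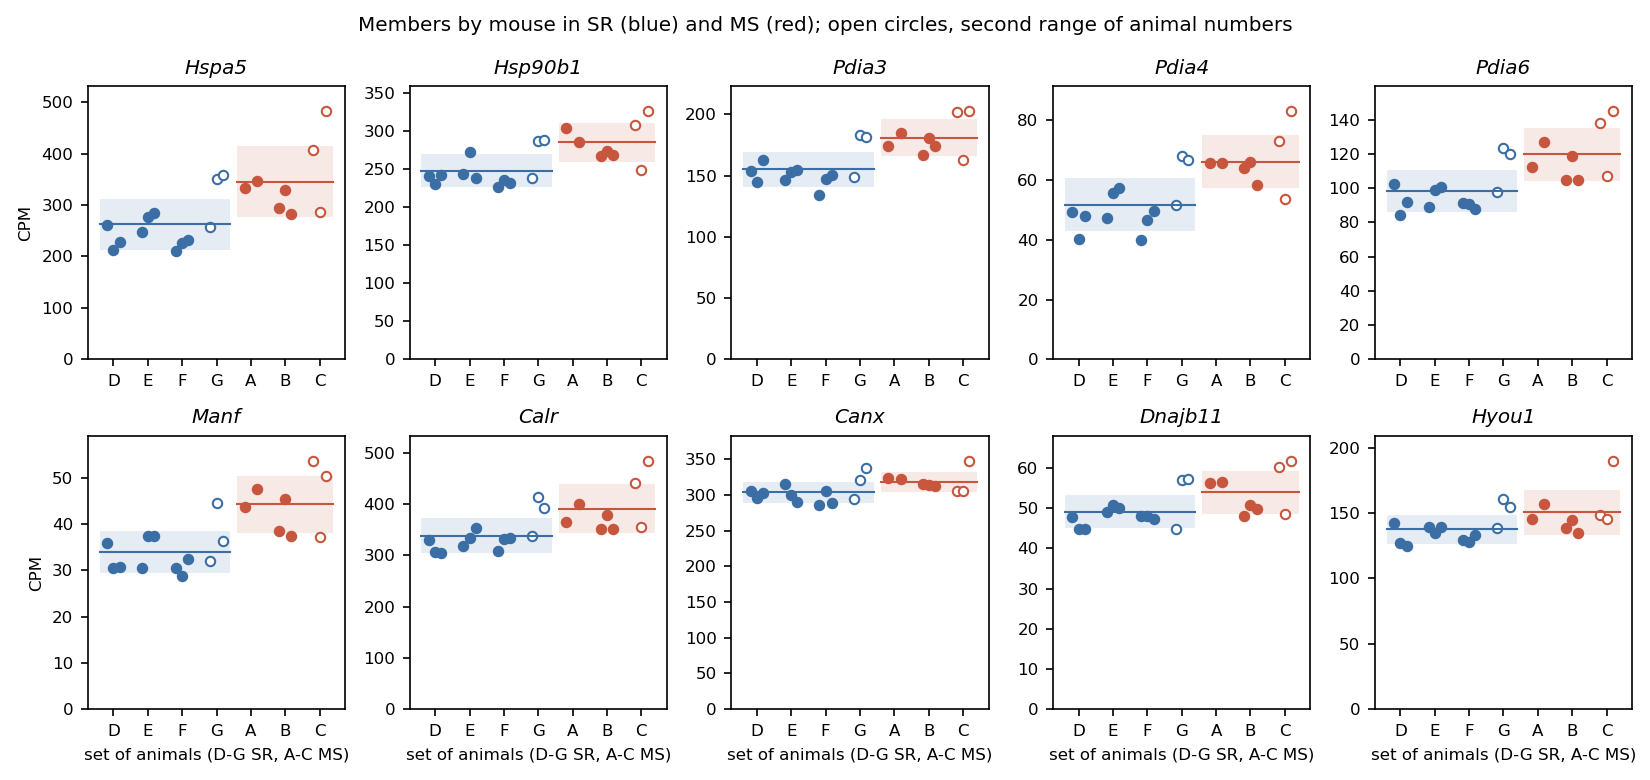
CPM of each member (vertical axes, from 0) in each mouse, by set of animals (horizontal axis); blue, SR (sets D to G, 12 mice); red, MS (sets A to C, 8 mice); open circles, the second range of animal numbers; lines and shading, group mean ± 1 SD. The SR mice G2 and G3 stand with the MS mice for most members, and for Manf no SR mouse is above the MS median of 44.6 CPM.

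Over the 10 members the log2 fold change of MS over SR was positive for all 10, with a median of 0.22 and a range from 0.07 for Canx to 0.40 for Hspa5, where the median over all 18146 genes was 0.00084 and 50.3% of them were higher in MS. By the quasi-likelihood test of edgeR 0 of the 10 passed an adjusted p of 0.05, a call that 0.011% of all genes received, and the adjusted p of the members lay between 0.111 for Manf and 0.450 for Canx. At an unadjusted p under 0.05, 9 of 10 were higher in MS by edgeR, Canx being the exception, where 6.62% of all genes were. DESeq2's Wald test gave an adjusted p under 0.05 to 6 of 10 members (Hspa5, Hsp90b1, Pdia3, Pdia4, Pdia6 and Manf) and to 0.966% of the 13871 genes to which it gave one, and limma-voom, with sets fitted as a random effect, gave it to 0 of 10. With counts summed within each set, edgeR gave it to 0 of 10, where 0 of 21752 genes passed. The members' adjusted p in that fit lay between 0.382 for Manf and 0.658 for Canx. Since the members were chosen by this contrast, these counts describe the choice. With the A2 library added, whose members' levels were lowest of all MS mice for 9 of 10 members, the median log2 fold change was 0.18.

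Ordered by the mean log2 level of the 10 members relative to the SR mean, the mice C3 (0.51), C1 (0.39), G2 (0.29), A3 (0.29) and G3 (0.25) came first, and F1 (-0.15) and D2 (-0.16) came last. C3 held the highest level of all 20 mice in 9 of 10 members, and C1 in the remaining one, Manf. The SR mouse G2 was among the 5 highest mice for all 10 members, and G3 for 9 of 10. Their set-mate G1 was between place 12 and 20 for each member, and C2, the set-mate of C3 and C1, between place 6 and 13.

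**Figure D2:**
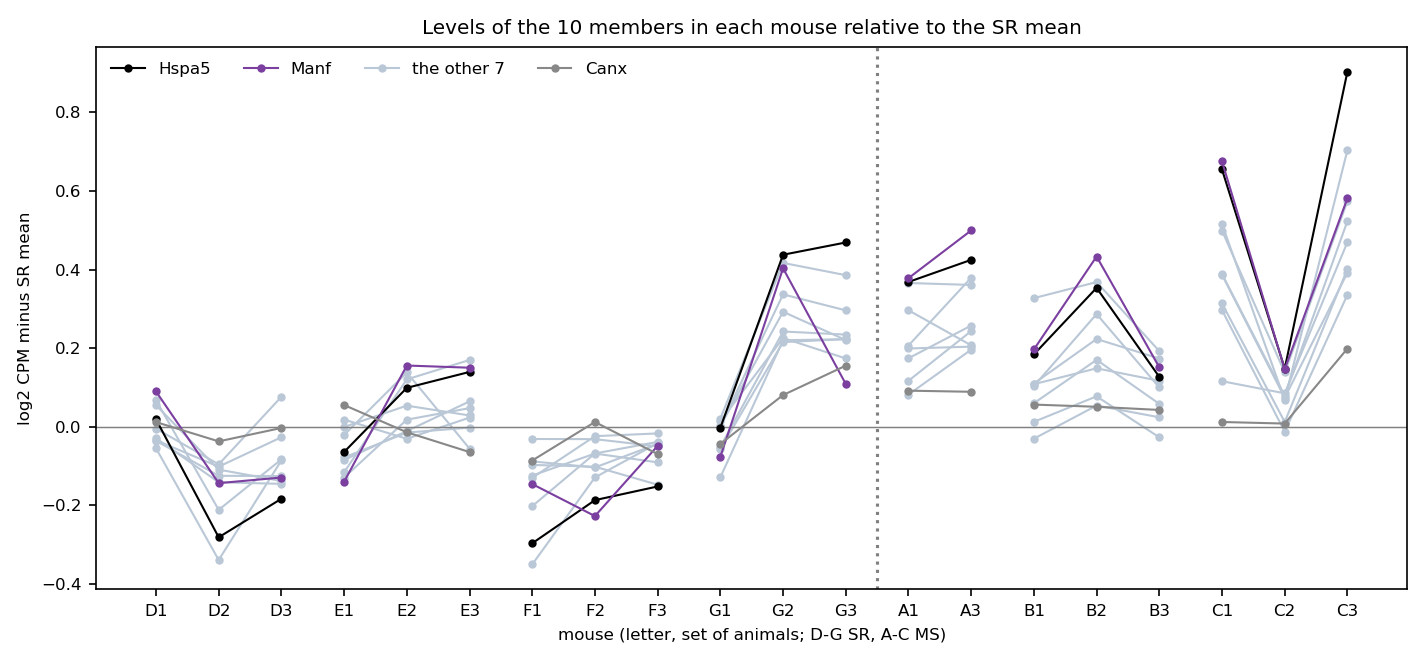
log2 CPM of each member minus its SR mean (vertical axis) in each of 20 mice (horizontal axis; letters, sets of animals; SR left of the dotted line, MS right); lines join the mice of a set. The members varied together from mouse to mouse, with high levels in G2, G3, C1 and C3 and levels near the SR mean in G1 and C2, while Canx stayed within a narrow band.

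Across the 12 SR mice, a comparison in which the contrast that chose the members plays no part, the 45 pairs of members had a median Pearson correlation of log2 CPM of 0.841, between 0.378 for Manf with Canx and 0.965 for Hspa5 with Pdia4. The correlation of Hspa5 with Pdia4 had a permutation p of 1e-05, which is the smallest that 100000 resamples give, and 0.000225 after adjustment over the 45 pairs, with a Spearman's rho of 0.944 (permutation p = 3e-05) and an r of 0.919 without the 2 mice farthest from the median. In 44 of 45 pairs the adjusted permutation p of Pearson's r was under 0.05, and in 28 that of Spearman's rho, whose median was 0.699. Among all pairs of the genes tested, the median r in SR was -0.0014, and 0.578% of pairs reached an r of 0.8, as 66.7% of the members' pairs (30 of 45) did.

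Much of the size of the SR correlations came with the mice G2 and G3. Without the 2 mice farthest from the median of the first gene of the pair, which were G2 and G3 in 41 of 45 pairs and E2 and G2 in the other 4, the median r was 0.508, with a range from -0.131 to 0.919, 43 of 45 pairs stayed positive, and 5 reached an r of 0.8. With G2 and G3 left out of every pair, the median was also 0.508, and 11.1% of the members' pairs reached 0.8, where 1.00% of all gene pairs did in these 10 mice. Without the 2 farthest mice of each pair, Hspa5 kept an r of 0.829 with Pdia6 and of 0.806 with Calr, whereas Calr with Canx had -0.131 and Pdia3 with Dnajb11 had -0.062, so these last relations rested on the mice left out. After centring each set on its own mean, the median r was 0.764 and the lowest 0.0527, set G with its high mice included. Centred in the same way without set G, over the 9 mice of D, E and F, the median was 0.427, with a range from -0.522 to 0.912, and 38 of 45 pairs were positive.

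Across the 8 MS mice the median r was 0.870, between 0.387 for Manf with Canx and 0.982 for Hspa5 with Calr. Calr and Pdia6 stood in the same order in all 8 mice, with a rho of 1.0 (exact permutation p = 5e-05, 0.00223 after adjustment over the 45 pairs), an r of 0.980 and an r of 0.997 without the 2 farthest mice. By exact permutation of the 8 mice, 36 of 45 pairs had an adjusted p of r under 0.05 and 32 one of rho. Of the 9 pairs with Canx 1 passed for r, that with Hyou1, at an r of 0.831 (exact permutation p = 0.0375, adjusted 0.0495). Its rho was only 0.333 (exact permutation p = 0.428), and its r was 0.319 without the 2 farthest mice, so that call rested on the mice left out. Of the 36 pairs without Canx 35 passed for r, Manf with Hyou1 being the exception at an r of 0.633 (exact permutation p = 0.0660, adjusted 0.0761). Without the 2 farthest mice, which were C1 and C3 in 25 pairs, C2 and C3 in 16 and C1 and C2 in 4, the median r was 0.776 and 43 of 45 pairs stayed positive. After centring on sets the median was 0.874 and the lowest r 0.322. In MS 71.1% of the members' pairs (32 of 45) reached an r of 0.8, where 1.64% of all gene pairs did, and 18 of 45 did without the 2 farthest mice.

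**Figure D3:**
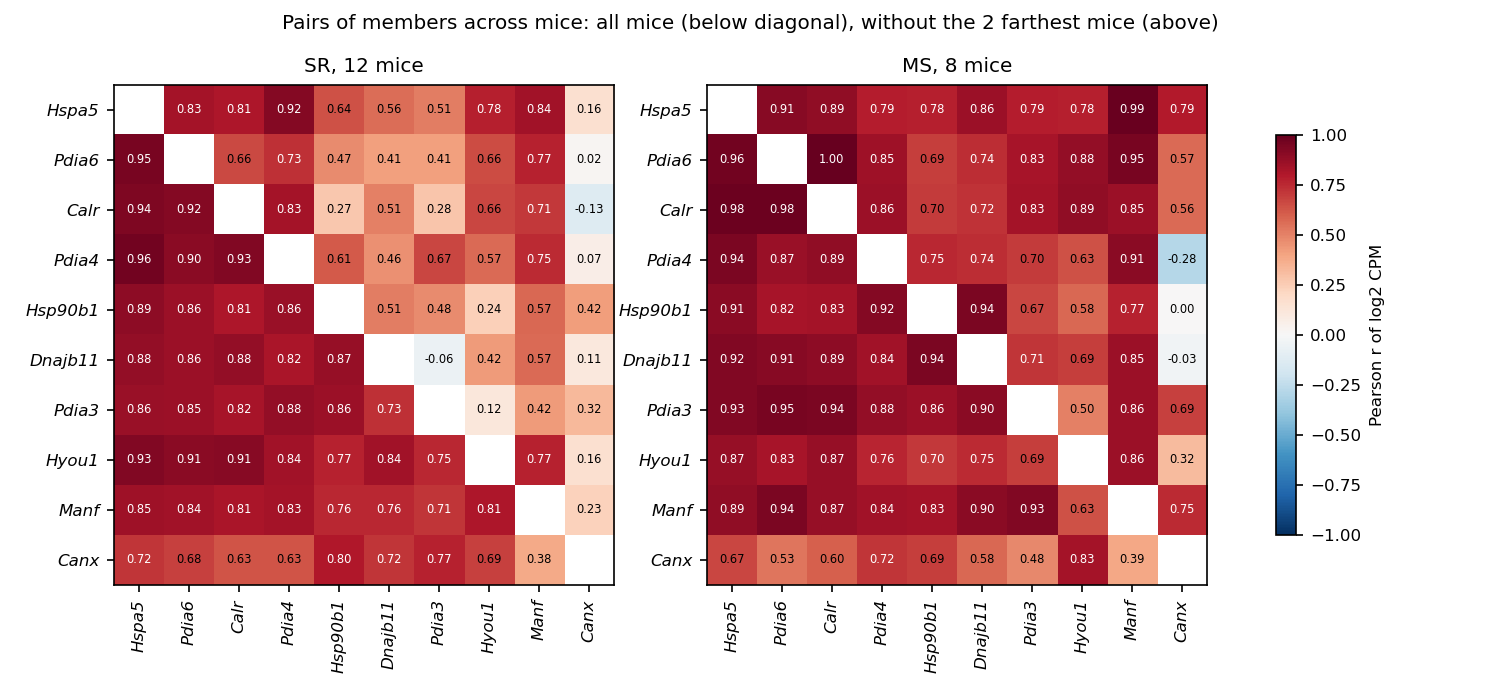
Pearson r of log2 CPM (colour, and the number in each cell) for each pair of the 10 members across 12 SR mice (left) and 8 MS mice (right); below the diagonal all mice, above it without the 2 mice farthest from the median of 1 gene of the pair. Hspa5 is at 0.937 or above with Pdia6, Calr and Pdia4 in both groups, Canx has the lowest median of the members in both, and the values above the diagonal are lower in SR, with a median of 0.508.

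Each member was also set against the mean of the other 9, over 20 mice centred within each condition. Hspa5 was closest to the rest with an r of 0.984, followed by Pdia6 with 0.951, Calr with 0.942, Pdia4 with 0.922, Hsp90b1 with 0.911, Dnajb11 with 0.907, Pdia3 with 0.894, Hyou1 with 0.863 and Manf with 0.838. Canx was least like the others, with an r of 0.688. A relation between these r values and the promoter motifs was not tested.

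The sets differed as well. Among SR sets, G had the highest mean of all 10 members, F the lowest mean of 8 and D that of 2. For Hspa5 the set means were 234 ± 25.2 CPM in D, 269.6 ± 19.8 in E, 223 ± 11.5 in F and 322 ± 55.5 in G (SD, n = 3 each). By edgeR's test over the 4 SR sets, 0 of 10 members passed an adjusted p of 0.05, as 0.0158% of all genes did, and 7 of 10 had an unadjusted p under 0.05 (Hspa5, Hsp90b1, Pdia3, Pdia4, Pdia6, Calr and Hyou1), as 7.46% of all genes did. Leaving out G2 or G3 left 2 members at that unadjusted level, Hspa5 and Pdia4 each time, where 5.7% of all genes were at it without G2 and 5.2% without G3, so the count rested on these 2 mice.

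Among MS sets, C had the highest mean of 8 members and A that of 2, and B had the lowest mean of all 10. Hspa5 had set means of 340.3 CPM in A (n = 2), 302 ± 25.1 in B and 392 ± 99.4 in C (SD, n = 3 each). By edgeR's test over the 3 MS sets, 0 of 10 members passed an adjusted p of 0.05, where 0.0952% of all genes did, and 0 had an unadjusted p under 0.05, where 8.87% of all genes did. Without C2, 7 of 10 members had an unadjusted p under 0.05, where 6.48% of all genes did.

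MS and SR were also compared within each range of animal numbers. In the first range, with 5 MS and 9 SR mice, the log2 fold change was positive for all 10 members with a median of 0.23, from 0.09 ± 0.041 (SE) for Canx to 0.41 ± 0.096 for Pdia4. Every MS mouse of that range lay above every SR mouse of it for 3 of 10 members, Pdia3, Pdia4 and Pdia6, as for 0.628% of all genes. For Pdia4 the 5 MS mice lay between 58.4 and 65.9 CPM and the 9 SR mice between 40.1 and 57.5 CPM. By edgeR 0 members passed an adjusted p of 0.05 in this range, where 0.0671% of all genes did, and 10 of 10 were higher at an unadjusted p under 0.05, where 8.8% of all genes were.

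In the second range, with 3 mice of each group, the median log2 fold change was 0.15, from 0.01 ± 0.060 for Canx to 0.32 ± 0.14 for Manf. The MS mice there were all of set C and the SR mice all of set G, so rearing and set cannot be told apart in this range. For Manf the MS mice C1, C2 and C3 had 53.7, 37.3 and 50.4 CPM and the SR mice G1, G2 and G3 had 31.9, 44.5 and 36.3 CPM, so the groups overlapped. None of the 10 members had every MS mouse above every SR mouse in this range, where 5.62% of all genes did, nor in all 20 mice, where 0.00551% did. By edgeR 0 members passed an adjusted p of 0.05 in this range, where 0% of genes did, and 1 member, Manf, was higher at an unadjusted p under 0.05, where 3.65% of genes were. The median in this range was 0.05 without C3 and 0.27 without C2, so it depended on which of the 3 MS mice was counted.

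The difference between the ranges was tested as an interaction, in which the second range again had a single set per group. Its median over the members was -0.09, from -0.25 ± 0.17 (SE) for Pdia4 to -0.03 ± 0.10 for Hyou1. By edgeR 0 of 10 passed an adjusted p of 0.05, where 0% of all genes did, and 0 had an unadjusted p under 0.05, where 8.52% of all genes did. The sign of the median turned without C2, to 0.05.

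**Figure D4:**
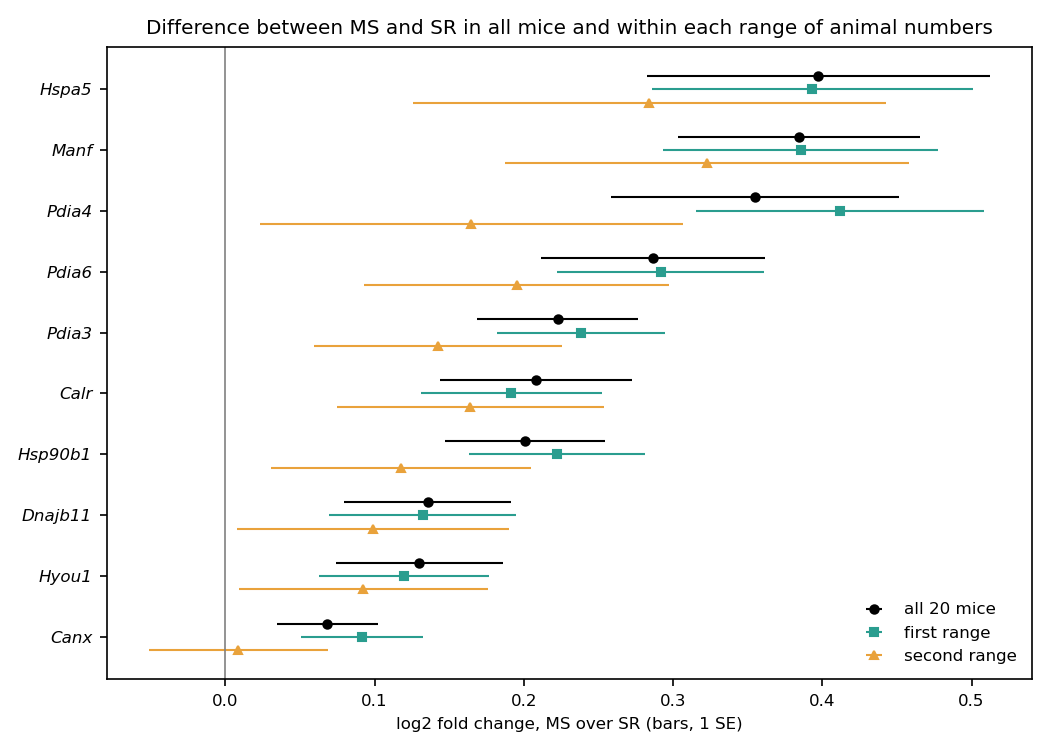
log2 fold change of MS over SR for each member (rows), from edgeR, in all 20 mice (black circles), in the first range of animal numbers (green squares, 5 MS and 9 SR mice) and in the second range (orange triangles, 3 and 3); bars, ± 1 SE. All values are above 0, and in the second range they are smaller and have wider bars, with Canx at 0.01.

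Markers of other cell types were compared in the same mice. The 10 choroid plexus epithelium markers, of which 0 were at 0 throughout, summed to between 55.9 and 4309 CPM in MS, with a median of 3403, and to between 32.0 and 4643 CPM in SR, with a median of 861. All 10 were higher in MS, with a median log2 fold change of 0.89, and 0 passed edgeR at an adjusted or at an unadjusted p of 0.05. The choroid sum was 4178 CPM in G2, 1568 in G3 and 58.6 in G1, and 1419.6 in C3, 949 in C1 and 55.9 in C2, so that within these 2 sets the mice with high members also had more choroid RNA. Across all 12 SR mice, though, the r between a member and the mean log2 level of the choroid markers lay between 0.066 for Hyou1 and 0.617 for Pdia3 (permutation p = 0.0308, and 0.308 after adjustment over 10 members), with a rho for Pdia3 of 0.594 (permutation p = 0.0455) and an r of 0.471 without the 2 farthest mice. Across the 8 MS mice it lay between -0.071 and 0.351, with no adjusted exact permutation p under 0.980, and without the 2 mice farthest in choroid level between -0.910 and -0.514 over 6 mice. With the choroid level as a term of the fit, the median log2 fold change of the members was 0.19.

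The libraries also differed in how strongly log2 CPM went with the log2 exon length of a gene. The r of a member with that trend lay between 0.280 for Calr and 0.713 for Canx across SR mice, with a lowest adjusted permutation p of 0.0512 for Canx and Hsp90b1, and between -0.273 and 0.636 across MS mice. With the trend as a term, the median log2 fold change was 0.23. Of the other lists, the 6 striatal markers had a median log2 fold change of 0.55, the 6 endothelial 0.01, the 5 meningeal 0.14, the 5 astrocyte 0.02, the 6 microglial 0.10, the 6 oligodendrocyte 0.01, the 5 dentate -0.09, the 5 CA pyramidal -0.14 and the 5 interneuron markers 0.07, with 0 calls in each. Apart from the fits named here, the part of these in the members' values was not tested.

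The wider ER machinery was described from a list of 92 genes outside the members, of which 91 were tested. Of these 66 were higher in MS, with a median log2 fold change of 0.05, and edgeR gave 0 of them an adjusted p under 0.05, as 0.011% of all genes received. At an unadjusted p under 0.05, 23 were higher and 1, Atf6, was lower, where 6.62% of all genes were higher at that level, and DESeq2 passed 1, the membrane-bound thioredoxin Tmx1, where it passed 0.966% of all genes. The groups of this list are described by the 2 genes of smallest p in each, and their counts are those at an unadjusted p under 0.05, to be read against that 6.62%.

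Of 13 co-chaperones of the Hsp70 and Hsp40 kind, 6 were higher and 0 lower at an unadjusted p under 0.05, with a median log2 fold change of 0.12. Dnajc3, which stimulates Hspa5, was at 74.9 ± 7.76 CPM in MS (SD, n = 8) and 64.0 ± 7.80 in SR (SD, n = 12), with a log2 fold change of 0.23 ± 0.069 (SE), and Sdf2, a luminal partner of Dnajb11, had 0.16 ± 0.051. Of 18 disulfide isomerases and oxidases 6 were higher and 0 lower, with a median of 0.03. Tmx1 was at 37.9 ± 2.97 CPM in MS and 33.2 ± 2.51 in SR (0.19 ± 0.051), and P4hb, the main disulfide isomerase, at 98.0 ± 7.10 and 89.0 ± 4.90 (0.14 ± 0.041). In the glycoprotein folding cycle 1 of 13 was higher, Mlec, which binds early sugar chains, with 0.12 ± 0.038, and the cargo lectin Lman2 had 0.06 ± 0.036.

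Of 8 prolyl isomerases 1 was higher at an unadjusted p under 0.05, the level used for each count here, Fkbp2 with 0.24 ± 0.066. Fkbp7 had -0.31 ± 0.17 at 1.65 ± 0.487 CPM in MS and 2.06 ± 0.423 in SR. Of 7 calcium-binding luminal proteins 2 were higher, Rcn2 with 0.11 ± 0.035 and Calu with 0.06 ± 0.028. Of the 3 retrieval receptors tested, the KDEL receptors Kdelr1 and Kdelr2, which return luminal chaperones from the Golgi, and Rer1, 1 was higher, Kdelr2 with 0.10 ± 0.043, and Kdelr1 had 0.08 ± 0.039. Of 15 genes of ER-associated degradation 5 were higher, among them Herpud1 with 0.19 ± 0.067 and Derl1 with 0.12 ± 0.049. Of 14 sensors and transcription factors 1 was higher, Xbp1 at 81.8 ± 11.2 CPM in MS and 68.5 ± 8.51 in SR (0.26 ± 0.079), and 1 was lower, Atf6 at 78.2 ± 6.01 and 84.6 ± 6.61 CPM (-0.11 ± 0.050). Counts of 1 in groups of 8, 13 or 14 genes lay near the share over all genes, of which 6.62% were higher at that level.

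Relatives of the members that work elsewhere, or that are close in sequence, were also measured. Of 11 such genes edgeR gave 0 an adjusted p under 0.05, as 0.011% of all genes received. At an unadjusted p under 0.05, 4 were higher (Hspa8, Hsp90aa1, Hsph1 and P4hb), where 6.62% of all genes were, and 0 lower. DESeq2 passed 1 (Hsph1), where it passed 0.966% of all genes, and the median log2 fold change was 0.05. P4hb, Cdnf and Clgn are ER genes that were also counted on the list above. The cytosolic Hsp70 Hspa8 had 0.11 ± 0.038 and the mitochondrial Hspa9 0.02 ± 0.026, where Hspa5 had 0.40. The cytosolic Hsp90 genes Hsp90aa1 and Hsp90ab1 had 0.09 ± 0.035 and 0.03 ± 0.039, and the mitochondrial Trap1 had -0.04 ± 0.031. The Hyou1 relatives of the cytosol, Hsph1, Hspa4 and Hspa4l, had 0.16 ± 0.042, 0.05 ± 0.038 and 0.05 ± 0.062. Cdnf, the paralog of Manf, had -0.15 ± 0.22 at 1.02 ± 0.458 CPM in MS and 1.12 ± 0.258 in SR, and Clgn, the relative of Canx, had -0.06 ± 0.068. No difference between a member and its relative was tested.

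The genes whose levels were most like the members were ranked by their Pearson r with the mean standardised level of the 10 members over 20 mice, centred within MS and SR. Among 18136 genes outside the members the median r was -0.0044, and 5 genes (0.0276%) reached 0.8. They were Xbp1 (0.856), Dnajc3 (0.835), St13 (0.829), a cytosolic cofactor of Hsp70, Sdf2l1 (0.822), an ER stress-inducible luminal protein, and Fxr1 (0.810), an RNA-binding protein. Stip1 (0.784), which links Hsp70 and Hsp90 in the cytosol, the vascular growth factor receptor Kdr (0.772), Herpud1 (0.766), the lipid droplet protein Plin2 (0.736) and Creld2 (0.736), a luminal protein with disulfide isomerase activity, followed. Of these 10, 5 were on the list of ER genes (Xbp1, Dnajc3, Sdf2l1, Herpud1 and Creld2). Taken by group, Xbp1 had an r of 0.799 in SR and 0.932 in MS, and Herpud1 had 0.565 in SR and 0.980 in MS.

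On the ER list 17 of 91 genes (18.7%) had an r of at least 0.5, where 1.41% of the genes outside the members did, and the median r was 0.181. The median was 0.432 among the co-chaperones and 0.349 in ER-associated degradation, and it was 0.024 among the sensors and transcription factors and -0.127 among the 3 retrieval receptors. Of the relatives outside the ER, Hspa8 had an r of 0.709 and Hsph1 of 0.604, and Hspa9 had 0.143 and Trap1 0.003. Genes with an ERSE in the promoter and outside the members were matched by symbol, which gave 15 among those tested, with a median r of 0.351. Of these, 10 of 15 were higher in MS, where 50.3% of all genes were, and their log2 fold changes had a median of 0.08. Ero1b also held the element but is named Ero1lb in the annotation used here, so it was not matched and is not among the 15. It had an r of 0.521 and a log2 fold change of 0.14 ± 0.053. The highest r among the 15 were those of Dnajc3, Creld2, Derl3 (0.672) and Syvn1 (0.645), the latter pair being factors of ER-associated degradation, and the lowest was that of Gm6566 (-0.153). These r values share the libraries and carry no p. They were not taken again without G2, G3, C1 and C3, the mice with high levels of the members.

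**Figure D5:**
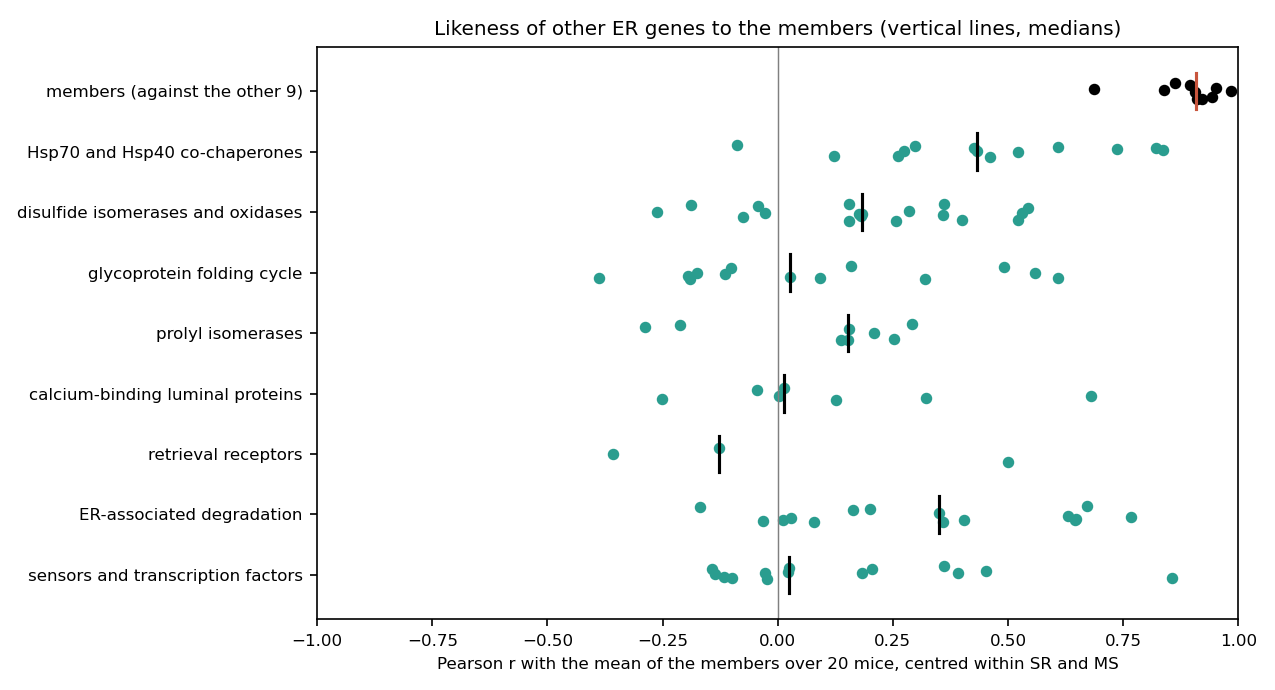
Pearson r of each gene with the mean standardised level of the members over 20 mice, centred within SR and MS (horizontal axis), by group of the ER list (rows; 91 genes as green points, spread vertically for sight only), with each member against the other 9 in the top row (black); vertical lines, medians. The members lie between 0.688 and 0.984, the co-chaperones and degradation genes have the highest medians of the 8 groups, 0.432 and 0.349, and Xbp1 is the point farthest right, at 0.856.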

How the data were processed

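Poly-A RNA libraries of the hippocampus, prepared with a directional kit, fell into MS and SR by their labels. Reads had been aligned by STAR 2.7.3a to GRCm38 and assigned to Ensembl genes by featureCounts, and the authors deposited the resulting raw counts of 21 libraries as 1 table, with neither normalisation nor filter. The strand setting and the version of the counter are not given in the sources used here.

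The members and the gene lists were chosen with earlier results of these data known. Symbols, positions and exon lengths were taken from GENCODE M21, which held 55227 of the 55487 gene identifiers. The library farthest from the median on the first principal component (DESeq2 1.42.0, variance stabilisation, 500 genes of largest variance) was left out, since the study left out 1 outlier. Counts were filtered by filterByExpr (minimum count 10), normalised by TMM and fitted with the quasi-likelihood test of edgeR 4.0.16 in R 4.3.3 (robust), with Benjamini-Hochberg adjustment over all genes tested and a threshold of 0.05. CPM refer to TMM-normalised totals, and log2 CPM used a prior count of 2. The biological coefficient of variation was 13.35%.

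Correlations used Pearson's r and Spearman's rho with two-sided permutation tests, 100000 resamples in SR and all 40320 pairings in MS. Genes named were the members, their relatives, from each group of the ER list the 2 genes of smallest p, and the 10 genes of mean log2 CPM above 1 most like the members. The promoter motifs, the r limits of 0.8 and 0.5, the counts of groups that do not overlap and the relations to choroid level and length were chosen after values had been seen. Shared sequence was searched with BLAST+ 2.17.0 (95% identity, 100 bases). Alternatives were all 21 libraries, other filters, DESeq2's size factors and Wald test, terms for range, choroid level and length trend, limma-voom (limma 3.58.1) with the set as block, counts summed by set, and each library or set left out. The computations were tested on simulated data. Standard errors were obtained by dividing the log2 fold change by the root of the F statistic, and the counting errors cover counting only.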

Additional observations from a re-analysis of the deposited data

Results flagged for a closer look

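The spread of each member's CPM among the 8 MS mice was examined for a mouse far from the others, which gave 10 groups of values, and chance alone marks about 1 in 20 such groups. Canx in the MS mouse C3, at 348 CPM, and Hyou1 in C3, at 190.0 CPM, were farther above the next MS mouse than Dixon's 95% limit for 8 values allows, the next being A1 at 323 CPM for Canx and A3 at 157 CPM for Hyou1. C3 was the highest of 20 mice for 9 of 10 members. The other 8 members had no such mouse.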

How the results depend on the processing

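The count of members with an adjusted p under 0.05 was 0 for MS against SR by edgeR and 6 by DESeq2's Wald test, which called 134 of all genes where edgeR called 2 (109 without C2 or without C3, and 340 without set C). With 1 library or set left out it lay between 0 and 3. It was 3 without C2 (Hsp90b1, Pdia3 and Manf), where 109 of 18266 genes passed, and 1 without G2 (Manf), where 3 of 18057 did. The remaining alternatives gave 0. In the first range the count lay between 0 and 4 with 1 library left out, with 4 without C2 (Pdia3, Pdia4, Pdia6 and Manf), 2 without C1 (Pdia3 and Manf), 2 without C3 (Pdia4 and Pdia6) and 1 without D3 (Pdia3). The shares of all genes called in these refits of the first range were not taken, so the counts in that range have no background to be read against. Members with an unadjusted p under 0.05 over the SR sets numbered 7, where 7.46% of all genes were at that level. With 1 library left out they numbered between 2 and 9, with 2 without G2 (5.7% of all genes) and 2 without G3 (5.2%). Over the MS sets they numbered 0 (8.87% of all genes), and between 0 and 7 with 1 library left out, with 7 without C2 (6.48%). With no filter on low counts 3 were at that level over the MS sets (Hspa5, Pdia6 and Calr), and Hspa5 passed an adjusted p of 0.05 by edgeR (0.0182). For that fit and for the other libraries left out the share was not taken. Where A1 or A3 was left out, the other was assumed to vary like the other sets. The cause was not tested. The median log2 fold change of the members lay between 0.18 and 0.27 with 1 library or set left out, and every member's own value stayed positive under each alternative run. The median r of the 45 pairs lay between 0.767 and 0.864 in SR and between 0.778 and 0.892 in MS with 1 mouse left out. In 2 alternatives chosen after seeing the data, the SR median of 0.841 became 0.508 without G2 and G3 and 0.427 without set G with the other sets centred on their own means; the like value without set C is not given, since 5 MS mice would remain. No paired analysis was possible because the replicate numbers follow the order of the samples and pair no mice. Depth was no limit for the members, the lowest count being 678. The number of mice and sets was, with 3 mice of a single set per group in the second range.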

Other observations

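The MS library A2, left out of the comparisons, had 243 CPM of Hspa5, where the other MS mice had 282 to 483, and 139 CPM of Pdia3, where they had 163 to 203. Its Hsp90b1, at 255 CPM, was the only member above the lowest of the other MS mice, which had 249 to 326 CPM. Manf was 37.0 CPM in A2 and 37.3 to 53.7 CPM in the others. This library also stood apart in its striatal and dentate markers, and the part of these in its ER chaperone levels was not tested.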
